A study of Drosophila melanogaster with 2 samples.

Results

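The Enhancer of split complex, E(spl), is a run of Notch target genes on chromosome arm 3R of Drosophila melanogaster, and 10 of its genes were followed here out of 18164 annotated genes on the 6 large arms. They were chosen by name: 7 encode basic helix-loop-helix (bHLH) proteins (E(spl)mdelta-HLH, E(spl)mgamma-HLH, E(spl)mbeta-HLH, E(spl)m3-HLH, E(spl)m5-HLH, E(spl)m7-HLH and E(spl)m8-HLH) and 3 encode Bearded-type proteins (E(spl)malpha-BFM, E(spl)m4-BFM and E(spl)m6-BFM). The data were chromatin immunoprecipitation followed by sequencing (ChIP-seq) of the CG1663 product from whole pupae, aged 24 hours per the labels, with males and females pooled. All samples came from a transgenic line that carries CG1663 with GFP at its C terminus, precipitated with an antibody to GFP. There were 2 biological replicates, numbered 1 and 3, in 1 group, with no second condition, and an untagged line was not analysed here. Because whole animals were used, the lists do not tell which cells a site was occupied in, and the fusion stands in for the native protein.

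In Drosophila, cleavage of the Notch receptor lets its intracellular part join the DNA-binding protein Su(H), and the pair switches on the E(spl) genes. The bHLH proteins are repressors that recruit the corepressor Groucho, made by the neighbouring gene gro, and they hold back proneural genes such as those of the achaete-scute group. The Bearded-type proteins are small inhibitors of Neuralized, a ubiquitin ligase that Notch ligands need in the signalling cell.

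The locus was taken from 5 kb before the first of the 10 genes to 5 kb after the last, chr3R:25992621-26046008 on build dm6 (Release 6), a length of 53.4 kb of which the genes span 43.4 kb. All 10 members had the same coordinates in the Ensembl and RefSeq annotations, and each had 1 annotated start. A peak summit is the base where a peak is highest. The IDR list, which keeps peaks by the irreproducible discovery rate (a score for how well the rankings of replicates match), held 9657 peaks, and the lists of replicate 1, replicate 3 and both pooled held 30000 each. Signal is the authors' value for a peak, taken here as relative to the control, although the sources used here do not state its unit. It is comparable within a list only, so replicates were compared by rank, rank 1 being the highest signal. The lists carry no read totals, and the depth behind each value is unknown.

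The locus held 15 IDR summits, numbered S1 to S15 along the arm, and 7 of them (S1, S2, S6, S9, S12, S13 and S15) ranked among the 965 strongest IDR peaks, a limit chosen after the values were seen. The 101 bases about 5 of these strong sites follow, with the weaker S4 at the E(spl)mbeta-HLH start for contrast, because they are the bases at the summits that the results turn on. Capitals mark runs of at least 6 A or T.
S2, upstream of E(spl)mdelta-HLH, chr3R:25997238-25997338, plus strand: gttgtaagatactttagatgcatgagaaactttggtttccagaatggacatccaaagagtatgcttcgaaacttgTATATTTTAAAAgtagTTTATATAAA
S6, upstream of E(spl)malpha-BFM, chr3R:26009056-26009156, plus strand: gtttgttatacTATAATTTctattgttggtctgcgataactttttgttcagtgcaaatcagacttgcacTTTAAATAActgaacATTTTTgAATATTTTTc
S9, upstream of E(spl)m2-BFM, chr3R:26017943-26018043, plus strand: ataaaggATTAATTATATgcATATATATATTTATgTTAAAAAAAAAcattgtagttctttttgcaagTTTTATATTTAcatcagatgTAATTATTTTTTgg
S12, upstream of E(spl)m3-HLH, chr3R:26021340-26021440, plus strand: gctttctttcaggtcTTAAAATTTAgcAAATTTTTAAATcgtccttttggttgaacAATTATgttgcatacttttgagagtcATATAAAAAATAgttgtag
S13, upstream of E(spl)m7-HLH, chr3R:26036615-26036715, plus strand: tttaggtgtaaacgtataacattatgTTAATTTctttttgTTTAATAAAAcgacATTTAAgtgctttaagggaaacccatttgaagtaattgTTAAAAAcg
S4, upstream of E(spl)mbeta-HLH, chr3R:26006142-26006242, plus strand: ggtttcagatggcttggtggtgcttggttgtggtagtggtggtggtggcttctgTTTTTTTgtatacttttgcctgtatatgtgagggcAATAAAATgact

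A second set is shown because Su(H) is the factor through which Notch acts on these genes. These are inverted pairs of Su(H) matches, found next to 4 members, with each match in capitals.
E(spl)mgamma-HLH pair, chr3R:25999553-25999593, plus strand: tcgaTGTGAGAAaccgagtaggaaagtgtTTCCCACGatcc
E(spl)m4-BFM pair, chr3R:26024854-26024894, plus strand: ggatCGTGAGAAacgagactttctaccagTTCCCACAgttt
E(spl)m7-HLH pair, chr3R:26036365-26036405, plus strand: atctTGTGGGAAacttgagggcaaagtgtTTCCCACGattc
E(spl)m8-HLH pair, chr3R:26040012-26040052, plus strand: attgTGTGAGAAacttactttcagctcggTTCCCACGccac

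IDR summits were dense on average over the locus but unevenly spread, with none in the 15.3 kb between S12 and S13. The 15 summits made 2.81 summits per 10 kb in the locus, against 0.721 per 10 kb over the 6 arms, a ratio of 3.9. Of all stretches of the same length begun every 1000 bp along the arms, 2.24% held at least 15 IDR summits, and the median stretch held 3. Only 0.0928% of stretches held at least 7 of the 965 strongest summits, and those stretches merged into 7 regions, the E(spl) locus included. The median signal of the 15 sites was 861.6, against 385.1 over the whole IDR list, and 10 of the 15 were in the stronger 50% of that list. The pooled list had 37 summits in the locus, replicate 1 had 37 and replicate 3 had 36.

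**Figure D1:**
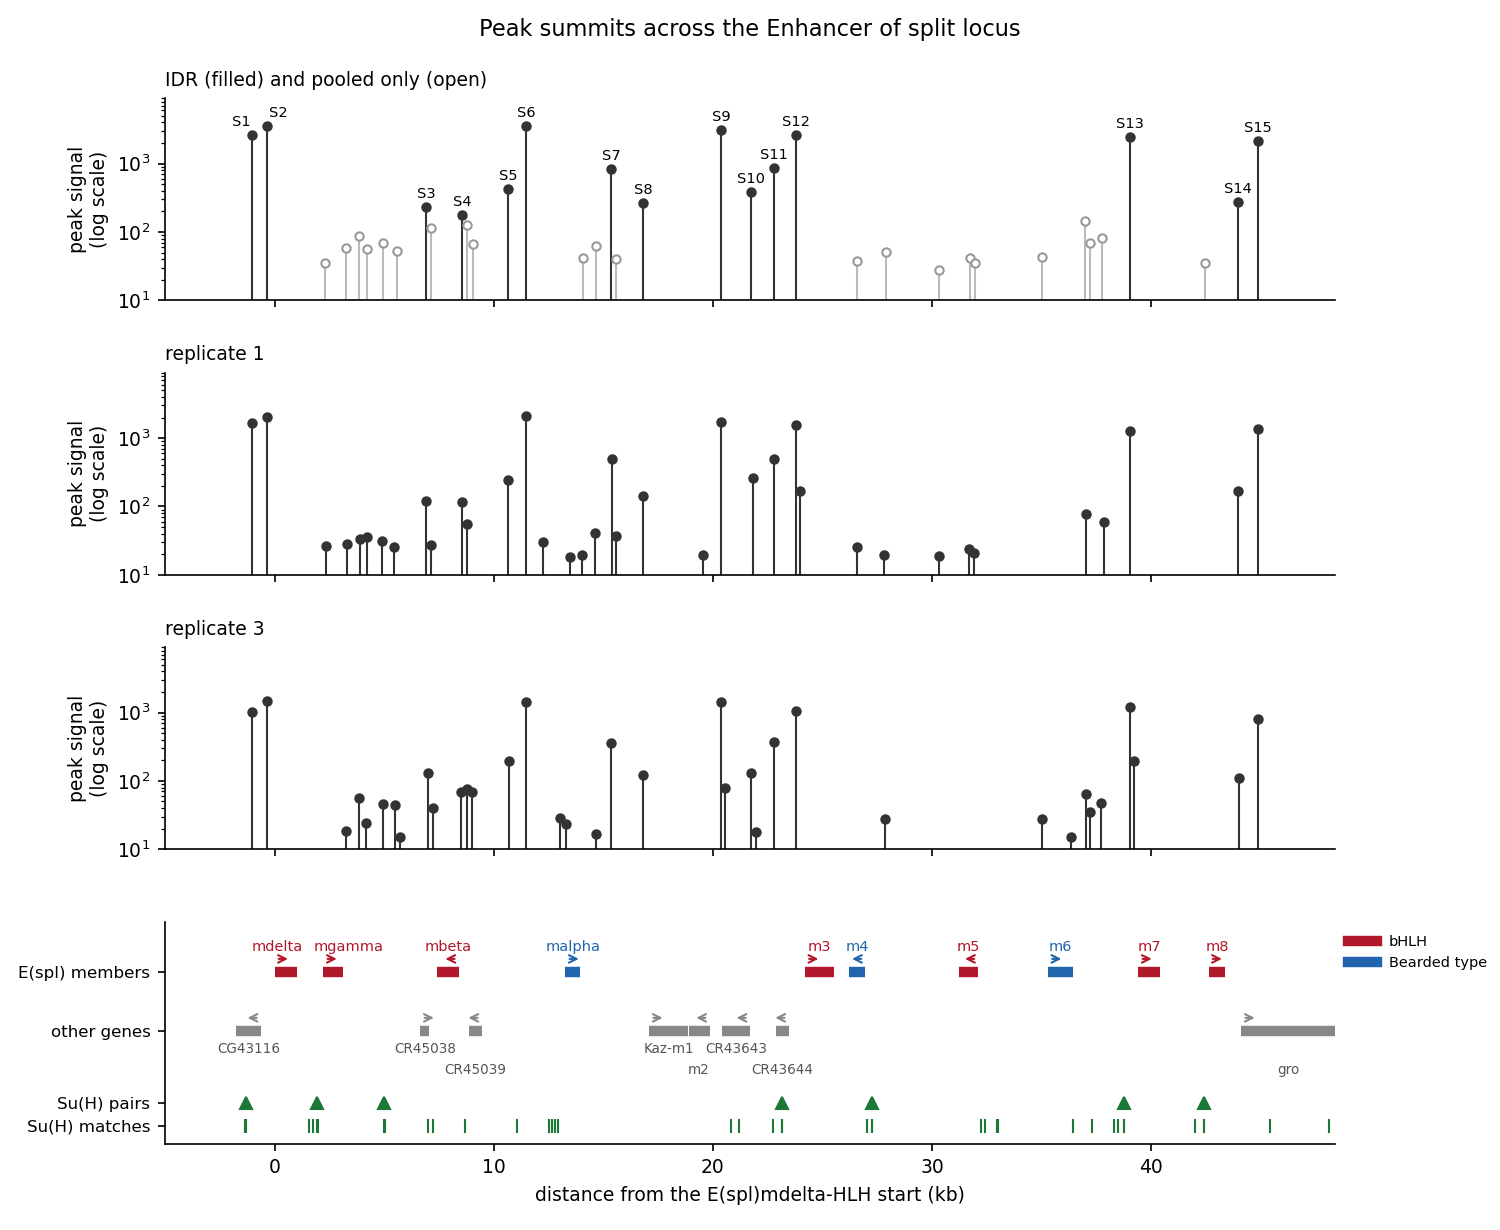
Signal of each peak summit (log scale) along the locus, in kb from the E(spl)mdelta-HLH start, for the IDR and pooled lists, replicate 1 and replicate 3, above the genes (arrows point along transcription; other genes are those nearest to an IDR summit) and the Su(H) matches and pairs. Strong IDR summits stand at both ends and in the middle, and the 15.3 kb between S12 and S13, which holds E(spl)m3-HLH, E(spl)m4-BFM, E(spl)m5-HLH and E(spl)m6-BFM, has open symbols only in the top panel.

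The strongest site was S6, with an IDR signal of 3531 and rank 135. It ranked 136 in replicate 1 and 144 in replicate 3. It lay in the intergenic stretch 1787 bp upstream of E(spl)malpha-BFM, the first Bearded-type gene of the complex. S2 followed closely, with an IDR signal of 3511 and rank 139, and it ranked 156 in replicate 1 and 134 in replicate 3. S2 sat between 2 genes that point away from each other, 333 bp upstream of E(spl)mdelta-HLH and 292 bp upstream of CG43116. Its neighbour S1, in the intron of CG43116, had a signal of 2667 and rank 291.

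The other strong sites were spread over the rest of the complex. S9 had a signal of 3140 and rank 188, 523 bp upstream of E(spl)m2-BFM, a Bearded-family gene of the locus outside the 10. S12 and S13 each lay upstream of a bHLH gene. S12 had a signal of 2613 and rank 309, 433 bp upstream of E(spl)m3-HLH and 314 bp upstream of lncRNA:CR43644. S13 had a signal of 2447 and rank 357, 373 bp upstream of E(spl)m7-HLH. S15, with a signal of 2162 and rank 485, lay in an intron of gro, 139 bp upstream of one of its other starts. Of the 7 strong sites, 5 were within 500 bp of an annotated start, against 412 of the 965 strongest IDR summits and 2946 of all 9657. Intergenic sites made up 5 of the 7, and their share over all IDR summits was not computed.

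The other 8 sites were weaker, in both replicates too. S7 and S11 had signals of 844.2 and 861.6 and ranks of 2101 and 2041. S5, S10, S14 and S8 had signals of 427.2, 379.7, 272 and 269.3. S3 and S4 were the lowest, with signals of 234.1 and 177.2, in a list whose lowest signal is 170.2. S4 was nevertheless the summit closest to any member's start, 169 bp upstream of E(spl)mbeta-HLH. No site of the locus fell between the strong and the weak sites in rank, from 485 to 2041.

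All 15 sites had an overlapping peak in both replicates. The 7 strong sites ranked between 136 and 507 in replicate 1 and between 134 and 620 in replicate 3, and the 8 weaker sites between 2135 and 8449 in replicate 1 and between 1917 and 11407 in replicate 3. The groups of ranks did not overlap in either replicate. The IDR list that set the groups was itself made from both replicates, so this is not separate evidence. The same holds for the match of all 15 sites. Among the strong sites S13 had the largest difference in rank, 507 in replicate 1 and 239 in replicate 3. Summits of the strong sites moved by at most 9 bp in replicate 1 and 24 bp in replicate 3 from the IDR summit, and those of all 15 by at most 61 and 99 bp. Among the 9657 strongest peaks of each replicate, 15 of 16 at the locus in replicate 1 (93.8%) overlapped a peak of replicate 3, and 15 of 15 in replicate 3 overlapped a peak of replicate 1. The unmatched replicate 1 peak was that of S4 (rank 8449), whose replicate 3 match ranked 11407. The share matched over all peaks was not computed, so whether the locus differs from the rest of the lists is unknown.

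**Figure D2:**
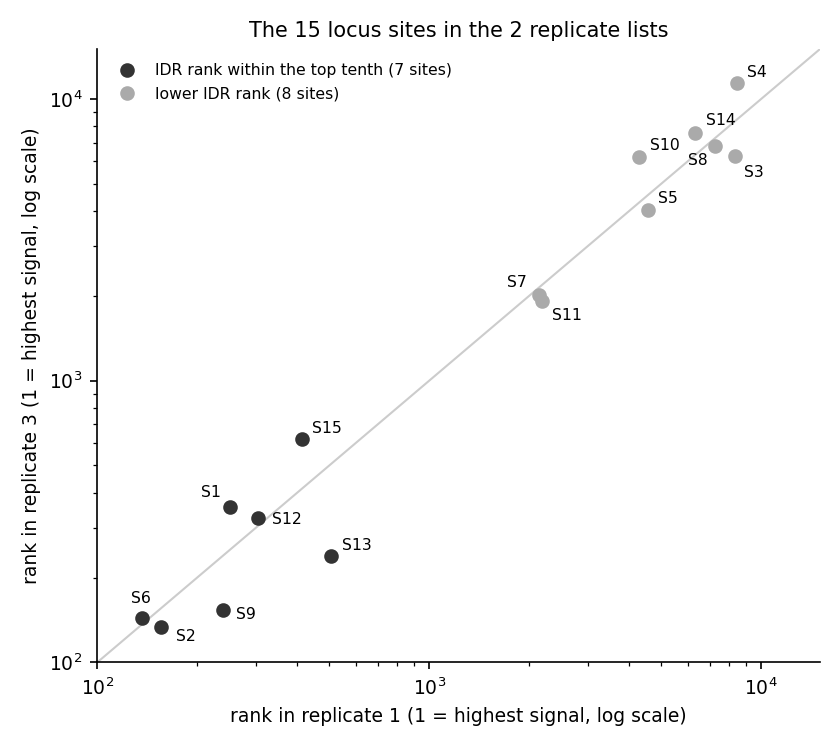
Rank of the 15 locus sites in replicate 1 (x axis) and replicate 3 (y axis), both on log scales, with equal ranks on the grey line. The 7 strong sites have ranks up to 620 on both axes and the 8 weaker sites have ranks from 1917 on.

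A gene was called bound if any of its starts had a summit no more than 500 bp away. In the IDR list 4 of the 10 members were bound, against 18.8% of all genes, and all 4 were bHLH genes: E(spl)m7-HLH, E(spl)m3-HLH, E(spl)mbeta-HLH and E(spl)mdelta-HLH. The summits counted for E(spl)mdelta-HLH (S2) and E(spl)m3-HLH (S12) were nearer to the starts of CG43116 and lncRNA:CR43644, which are not members. None of the 3 Bearded-type genes was bound. These are neighbouring genes of 1 locus and not independent, so no test of bHLH against Bearded-type genes was made. Summits among the 965 strongest were within 500 bp of 3 members (E(spl)m7-HLH, E(spl)m3-HLH and E(spl)mdelta-HLH), against 2.95% of all genes.

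The longer single lists gave other counts. In replicate 1 alone 8 members were bound (6 bHLH and 2 Bearded-type), against 29.5% of all genes. In replicate 3 alone 6 were bound (4 bHLH and 2 Bearded-type), against 41.0% of all genes. In the pooled list 9 were bound (7 bHLH and 2 Bearded-type), against 33.8% of all genes. The members gained in these lists had low signals, as their values below show.

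Among the bHLH genes, E(spl)mdelta-HLH had the highest signal near its start. Its highest value within 500 bp was 2014 in replicate 1 (rank 156) and 1494 in replicate 3 (rank 134), and 3511 in the IDR list. Both replicates placed the summit upstream, 334 bp away in replicate 1 and 357 bp away in replicate 3. E(spl)m3-HLH had 1567 in replicate 1 (rank 304) and 1052 in replicate 3 (rank 326), and 2613 in the IDR list. E(spl)m7-HLH had 1251 in replicate 1 (rank 507) and 1197 in replicate 3 (rank 239), and 2447 in the IDR list. In all 3 genes the summit was 333 to 433 bp upstream of the start in the IDR list, so none of them was bound with a window of 200 bp.

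E(spl)mbeta-HLH was the exception among the bound bHLH genes in the IDR list, with a near but weak summit. Its highest value within 500 bp was 117.4 in replicate 1 (rank 8449) and 77.22 in replicate 3 (rank 10277), against 177.2 in the IDR list (rank 9365). The replicate 3 value came from a second summit 363 bp upstream, and the replicate 3 peak matched to S4 had a signal of 68.23 and rank 11407.

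The remaining 3 bHLH genes had no IDR summit within 500 bp. E(spl)mgamma-HLH, which lies 2.23 kb beyond the E(spl)mdelta-HLH start, had a signal of 25.97 in replicate 1 (rank 23014), no summit in replicate 3 and 35.45 in the pooled list (rank 25584). E(spl)m5-HLH had 24.16 in replicate 1 (rank 24121), no summit in replicate 3 and 41.37 in the pooled list (rank 23569). E(spl)m8-HLH, the gene altered in the classical dominant Enhancer of split mutation, had no summit in either replicate and 34.71 in the pooled list (rank 25840). These signals lie near the low end of lists whose lowest signals are 17.18 in replicate 1 and 26.29 in the pooled list.

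The Bearded-type genes had low signals or none near their starts. E(spl)malpha-BFM had 18.11 in replicate 1 (rank 29034) and 28.69 in replicate 3 (rank 20893), with no pooled summit within 500 bp. E(spl)m4-BFM had 25.17 in replicate 1 (rank 23496), none in replicate 3 and 37.51 in the pooled list. E(spl)m6-BFM had none in replicate 1, 27.55 in replicate 3 (rank 21399) and 42.4 in the pooled list. For E(spl)m4-BFM and E(spl)m6-BFM the replicates did not share a summit. For E(spl)malpha-BFM the highest summits lay apart, 186 bp downstream of the start in replicate 1 and 231 bp upstream in replicate 3. A second replicate 3 summit lay 26 bp downstream, with a signal of 23.53 and rank 23401, and its peak overlapped the replicate 1 peak. Most weak peaks had a set width: of the 22 pooled summits of the locus outside the IDR list, 20 were peaks of 424 bp. That is the commonest width over the whole pooled list too, at 69.9% of its peaks, against 16.1% of IDR peaks.

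**Figure D3:**
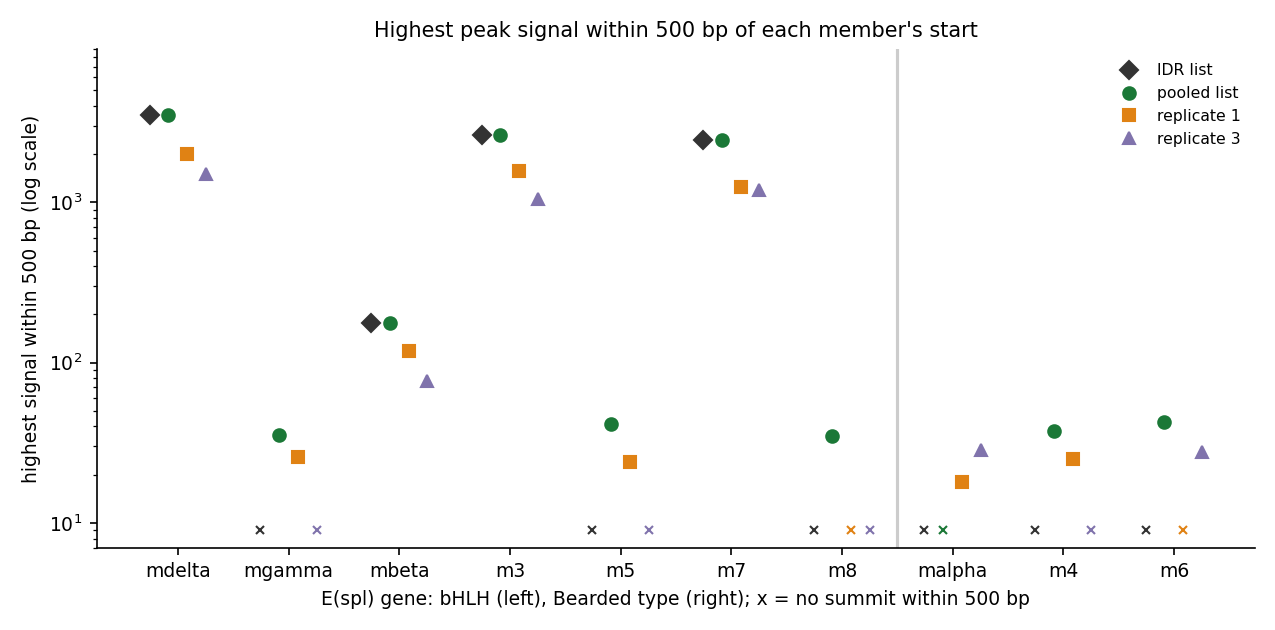
Highest peak signal within 500 bp of each member's start (log scale) in the IDR list, the pooled list, replicate 1 and replicate 3, with bHLH genes on the left and Bearded-type genes on the right, and crosses where a list had no summit there. E(spl)mdelta-HLH, E(spl)m7-HLH and E(spl)m3-HLH exceed 1000 in each list, E(spl)mbeta-HLH lies between 77.22 and 177.2, and the other 6 reach at most 42.4.

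Most members were closer to an IDR summit than the median gene. The bHLH median was below the Bearded-type median, but the distances of the classes overlapped. The median distance from a start to the nearest IDR summit was 1558 bp over the 10 members, against 5252 bp over all genes. It was 433 bp for the 7 bHLH genes and 3189 bp for the 3 Bearded-type genes. E(spl)m2-BFM, the Bearded-family gene of the locus outside the 10, was 523 bp from its nearest IDR summit. The nearest IDR summit was 1329 bp away for E(spl)m8-HLH (S14), 2563 bp for E(spl)mgamma-HLH (S2) and 6930 bp for E(spl)m5-HLH (S13). For the Bearded-type genes it was 1787 bp away for E(spl)malpha-BFM (S6), 3189 bp for E(spl)m4-BFM (S12) and 3754 bp for E(spl)m6-BFM (S13). E(spl)m5-HLH alone among the 10 was farther from a summit than the median gene.

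**Figure D4:**
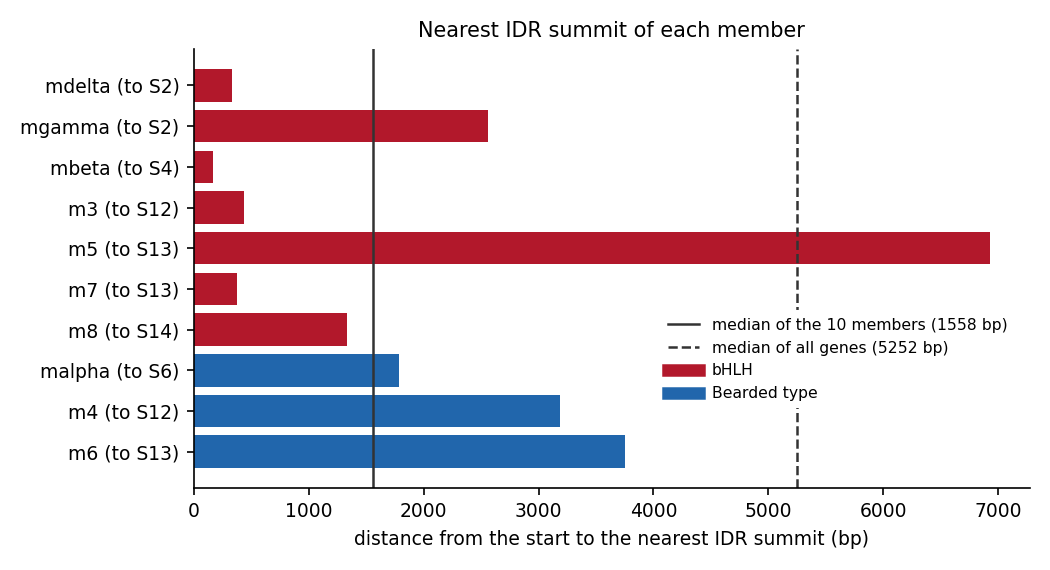
Distance in bp from each member's start to the nearest IDR summit, named in brackets, for bHLH genes (red) and Bearded-type genes (blue), with the medians of the 10 members (solid line) and of all genes (dashed line). The bars of 4 bHLH genes are under 500 bp, and the bar of E(spl)m5-HLH passes the dashed line.

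The longest interval without an IDR summit ran 15.3 kb from S12 to S13 and took in E(spl)m3-HLH, just downstream of S12, and E(spl)m4-BFM, E(spl)m5-HLH and E(spl)m6-BFM. The median interval between neighbouring IDR summits was 1543 bp at the locus, against 4221 bp over the arms. The arms as a whole averaged 0.721 IDR summits per 10 kb. The share of intervals over the arms as long as 15.3 kb was not computed, so whether this one is unusual is unknown. The interval from S12 to S13 held 9 pooled summits with signals from 27.37 to 142.8 and ranks from 11021 to 29415. More than 300 bp inside it, replicate 1 had 7 summits, none ranked better than 11329, and replicate 3 had 6, none ranked better than 11944. That limit left out a stronger replicate 1 summit near S12, in the same replicate peak. It lay 218 bp upstream of E(spl)m3-HLH, with a signal of 169.6 and rank 6266.

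Most sites were nearest to genes other than the members. By nearest start, 3 of the 15 IDR summits fell to members (S4 to E(spl)mbeta-HLH, S6 to E(spl)malpha-BFM and S13 to E(spl)m7-HLH) and 12 to other genes of the locus. CG43116, the RNA gene lncRNA:CR43644, gro and Kaz-m1, also known as E(spl)m1 and coding for a Kazal-type protease inhibitor, had 2 each. E(spl)m2-BFM, lncRNA:CR45038, lncRNA:CR45039 and lncRNA:CR43643 had 1 each. Counting protein-coding starts only, 7 of the 15 fell to members, E(spl)m3-HLH among them with S12, whose nearest start was that of lncRNA:CR43644. Counting member starts only, 12 fell to bHLH genes and 3 to Bearded-type genes, but 7 of the 10 members are bHLH genes. The members at both ends are bHLH genes, and they took S1 and S2 (E(spl)mdelta-HLH) and S14 and S15 (E(spl)m8-HLH). S9 fell to E(spl)m3-HLH, 3830 bp away, because E(spl)m2-BFM is not among the 10. In the pooled list 17 of the 37 summits fell to members, 9 to bHLH and 8 to Bearded-type genes.

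The bases at the sites were rich in A and T, as the printed sequences show. The GC content within 50 bp of the summit had a median of 27.7% over the 15 sites, against 29.7% over all IDR summits. In windows 1000 bp to each side the median was 48.5% at the locus sites, against 41.6% over all IDR sites. The summit was lower in GC than the mean of its own flanks at 14 of the 15 sites, against 82.2% of all IDR sites. Runs of at least 6 A or T covered a median of 38 of the 101 bases at the 15 sites, against 29 over all IDR sites. Strong sites elsewhere were much the same. The 7 strong locus sites and the 965 strongest IDR sites both had a median GC of 27.7%. All 7 were lower in GC than their flanks, against 92% of the 965, and A or T runs covered medians of 32 and 34 bases. The whole locus had 44.3% GC, close to the 42.2% of the arms.

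The range among sites was wide. GC was lowest at S7 (15.8%) and S9 (17.8%) and highest at S3 and S4 (43.6% each), which were also the weakest in signal. The 7 strong sites ranged from 17.8% to 31.7% and the 8 weaker sites from 15.8% to 43.6%, so the ranges overlapped. The 10 words of 8 bases most enriched at IDR summits on X, 2L and 3L occurred at 0 of the 15 sites, although 13.3% of IDR summits on 2R, 3R and 4 held at least 1 of them. A count of 0 in 15 allows a share of up to 20.0% (3 counts of the total, covering counting error only).

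Motifs linked with the complex were sought on either strand in the 50 bp to each side of a summit, and a match describes letters only. Apart from the general E-box, no word tied to Notch or to bHLH proteins was at a site, but these words are rare at IDR summits in general, so counts of 0 in 15 are near the background. The Su(H) words TGTGAGAA, TGTGGGAA, CGTGAGAA and CGTGGGAA were at 0 of the 15 sites, against 0.694% of all IDR summits. The proneural E-boxes GCAGGTG and GCAGCTG were at 0, against 1.13%, and the HES words CACGTG and CACGCG, which E(spl) bHLH proteins are known to bind, at 0, against 1.38%. The N-box CACNAG was also at 0, against 7.93%. The general E-box CANNTG, which includes both proneural words and CACGTG, was at 7 sites, against 31.7%. The GAGA word GAGAG was at S5 and S12, against 9.34% of all IDR summits, while CACACA was at 0, against 6.01%, and ATCGATA at 0, against 1.55%.

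Su(H) words were more frequent in the locus than over the arms, and their distances to the summits were near what the bases of the locus have. There were 40 matches, 7.49 per 10 kb, against 1.06 per 10 kb over the arms. Of the 40, 26 had a member's start as the nearest start, and 8 of these were within 300 bp of it. Of the 40, 1 (2.5%) was within 100 bp of an IDR summit (77 bp from S11), where 5.65% of the bases of the locus lay, and 12 (30%) were within 500 bp, where 27% of the bases lay. The median distance from a match to the nearest IDR summit was 1378 bp.

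The search for inverted pairs, with first bases 23 to 26 bp apart, was chosen after the matches had been seen. The locus held 7 such pairs of the 9 on the 6 arms. As the printed pairs show, 4 had a member's start as the nearest: the pair lay 278 bp upstream of E(spl)mgamma-HLH, 295 bp upstream of E(spl)m4-BFM, 653 bp upstream of E(spl)m7-HLH and 208 bp upstream of E(spl)m8-HLH. The other 3 were nearest to CG43116, lncRNA:CR45037 and lncRNA:CR43644. None of the 7 was within 100 bp of an IDR summit, a count near the 5.65% of bases that lie there. The E(spl)m7-HLH pair was the closest, 280 bp from S13, and the E(spl)m4-BFM pair the farthest, 3484 bp from S12. Of the 4 members with a pair, E(spl)m7-HLH was bound in the IDR list and the other 3 were not, beside 4 bound of all 10 members.

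In promoter windows from 250 bp before to 50 bp after the start, Su(H) words were found in 3 members (E(spl)m5-HLH, E(spl)m8-HLH and E(spl)m4-BFM), against 4.14% of all genes. E(spl)m8-HLH had 2 of them, against 0.0991% of all genes with 2 or more. GAGAG was in 6 of the 10 members, against 34.7%. CACNAG was in 4, near the 35.1% of all genes, and CACACA in 5, against 24.7%. The members with either of these words were all bHLH genes, as are 7 of the 10 members.

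Other genes of the pathway, from lists written for this purpose, are set beside the complex by the same 500 bp rule and the same 18.8% of all genes. Of 17 core Notch pathway genes 9 were bound, with a median distance to the nearest IDR summit of 411 bp, against 5252 bp over all genes. Any start counts, so genes with several starts, such as gro with 4, can be bound in more places. The number of starts was not matched. The highest signals belonged to numb, an inhibitor of Notch in asymmetric division (2680), gro (2162, site S15 of the locus), neur, which encodes Neuralized (1821), and mam, which encodes the coactivator Mastermind (1613). Delta, which encodes a Notch ligand, had 271.3 and Notch itself (N) 265.1, while Su(H) was not bound. Of 5 relatives of the bHLH genes elsewhere in the genome 1 was bound, h (hairy), with a signal of 291.1. None of the 4 matched Bearded-family genes outside the complex was bound. Of 9 proneural genes and bHLH partners, da (329.4) and emc (324.7) were bound.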

How the data were processed

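ChIP-seq peak lists of 2 biological replicates were used. Per the README files deposited with the samples, the authors called peaks on assembly dm6 for replicate 1, replicate 3 and both pooled, each against 1 control alignment, and derived an IDR-thresholded list. For the peak caller, aligner and read filters, names and settings were not given in the sources used here. The authors' signal (column 7 of the deposited lists) was taken to be the caller's value for a peak relative to the control. This was read from the list format and the values, since its unit was not given. Column 10 gives the summit. The IDR list held exactly the 9657 pooled peaks of highest signal. Read depth is unknown.

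Genes came from Ensembl release 115 (BDGP6.54) and bases from the RefSeq Release 6 genome, which also gave the promoter windows because no promoter table was used here. Summits were given to the nearest annotated start, and genes were called bound within 500 bp. Motifs were searched on both strands. Python 3.11.15, pandas 2.3.3 and numpy 2.4.6 were used, and the functions were tested on simulated data. With 1 group there was no test, and replicates were compared by rank and overlap. Named genes were the 10 members, every gene nearest to a locus summit, E(spl)m1, E(spl)m2-BFM and gro, and up to 4 bound genes of each list. Delta, N and Su(H) were named after their values were seen. List genes were matched by symbol or RefSeq synonym, and BobB and BobC were not matched. The members, lists and tests were chosen with earlier results of these data known. Alternatives were other windows, thresholds, lists, starts, overlap rules and motif widths. The limit of 965 peaks, the stretches, the flank comparison and the Su(H) pairs were chosen after seeing the data.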

Additional observations from a re-analysis of the deposited data

How the results depend on the processing

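The number of locus summits was 15 in the IDR list, and 15 also with margins of 2 and 10 kb, against 37 in the pooled list and 36 to 37 when a replicate was left out by using the other's list alone. Members bound numbered 4 in the IDR list, against 1 with a window of 200 bp, 9 in the pooled list and 6 to 8 when a replicate was left out. bHLH members bound numbered 4, against 1 with 200 bp, 7 in the pooled list and 4 to 6 without a replicate. Bearded-type members bound numbered 0, against 2 in the pooled list and 2 without either replicate. E(spl)malpha-BFM was bound in both replicate lists, with its highest summits on opposite sides of the start. The other was E(spl)m4-BFM in replicate 1 and E(spl)m6-BFM in replicate 3. The replicate lists and the pooled list run to 30000 peaks by construction. Restricted to its 9657 strongest peaks, replicate 1 gave 4 members and replicate 3 gave 3. Summits given to members numbered 3, against 7 with protein-coding starts and 15 with member starts only. With all peaks compared, 29 locus peaks of replicate 1 and 34 of replicate 3 were matched in the other replicate, against 15 in each. With 100 bp to each side, Su(H), HES and N-box words were each at 1 site and the general E-box at 11. No paired analysis was possible because there is 1 group and no comparison between groups. Peak lists without read counts, an untagged line not analysed here and whole pupae limit what these values can show, and members of 1 locus share summits.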
